A study of Mus musculus with 2 samples.

Results

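Transcripts of the phagocyte NADPH oxidase were read on 1 Affymetrix array of mouse marrow cultured with ID8 tumour cells. The 7 genes are Cybb, Cyba, Ncf1, Ncf4, Rac1, Rac2 and Hvcn1. Their members on the array were the probe sets whose single gene symbol in GEO's platform annotation is one of these names, which gave 14 of 45037 probe sets, and 0 further probe sets listed a member beside another gene. Cybb, Ncf1 and Rac1 had 3 probe sets each, Rac2 had 2, and Cyba, Ncf4 and Hvcn1 had 1 each. The rule picks probe sets by gene name, but the 7 names were listed with earlier results of these data known.

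The study hybridised RNA of 2 samples, 1 array each, to compare marrow cells turned into myeloid-derived suppressor cells (MDSC, myeloid cells of an immature state that dampen T cell responses) with control marrow cells. Both came from femurs of C57BL/6 mice and were grown in RPMI-1640 with 5% FBS, and the labels give both a CD11b+Gr1+ phenotype. For the ID8-induced MDSC, 50000 ID8 cells (a mouse ovarian tumour line, also spelled 1D8 in the labels) were held in transwell inserts of a 24-well plate above 2000000 marrow cells for 4 days, while the title speaks of ID8 supernatant. The labels name the control only as bone marrow cells and give no tumour cell partner for it. They do not state how long the control was cultured, the age or number of the mice, or whether mice were pooled. Sorting is not described, so the RNA is taken as that of the whole culture.

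The control column could not be used gene by gene. Its signals fall in 2 interleaved sequences down the probe set list, with 0 rises from row to row among the 22626 values at or above the column's last value and 0 among the 22411 below it. The ID8-induced column had 10622 and 11804 rises when divided in the same way. No fold change is therefore given, and all values that follow describe 1 array of ID8-induced MDSC, with no replicate, no error between cultures and no test. They do not show that tumour cells raised or lowered any gene.

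The oxidase makes superoxide by moving electrons from NADPH across a membrane to oxygen. Its membrane part is a flavocytochrome of 2 subunits, the catalytic NOX2 chain encoded by Cybb and its partner encoded by Cyba. In resting neutrophils and monocytes it is inactive, and on stimulation cytosolic subunits, among them those encoded by Ncf1 (the organiser) and Ncf4, and a Rac GTPase move to it. The proton channel encoded by Hvcn1 lets protons follow the electrons and so keeps the membrane potential within the range in which the enzyme works. Inherited loss of flavocytochrome or cytosolic subunits causes chronic granulomatous disease, and superoxide from this enzyme is one of the means by which MDSC are known to restrain T cells.

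Cybb, Cyba and Ncf1 encode the flavocytochrome and its organiser and gave strong signals on every probe set. Promoter sequences are shown for these 3 because no other of the 7 members was found in the RefSeq promoter table (GRCm38.p6). Each is the 250 bases before the annotated start, 5′ to 3′ on the gene's strand, which is the minus strand for all 3. Capitals mark matches to any of 5 short motifs searched on both strands.
Cybb, chrX:9469325-9469574: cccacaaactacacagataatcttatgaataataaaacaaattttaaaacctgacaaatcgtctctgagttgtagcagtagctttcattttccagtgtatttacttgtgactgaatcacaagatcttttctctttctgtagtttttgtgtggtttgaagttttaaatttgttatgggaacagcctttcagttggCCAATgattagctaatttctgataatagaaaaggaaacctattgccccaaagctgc
Cyba, chr8:122432941-122433190: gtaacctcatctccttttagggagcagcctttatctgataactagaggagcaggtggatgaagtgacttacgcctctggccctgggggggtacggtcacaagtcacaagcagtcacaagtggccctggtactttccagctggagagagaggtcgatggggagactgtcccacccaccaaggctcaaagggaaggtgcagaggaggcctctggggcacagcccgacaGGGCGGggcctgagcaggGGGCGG
Ncf1, chr5:134229626-134229875: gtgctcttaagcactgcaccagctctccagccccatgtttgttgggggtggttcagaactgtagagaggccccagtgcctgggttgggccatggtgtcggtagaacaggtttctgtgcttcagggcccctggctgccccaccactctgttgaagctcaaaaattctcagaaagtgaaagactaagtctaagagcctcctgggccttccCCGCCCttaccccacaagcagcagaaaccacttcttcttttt

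In the Cybb promoter the capitals are 1 CCAAT box (CCAAT), which lies 56 to 52 bases before the start. Of 32851 RefSeq promoters of this length, 33.8% held that motif. The Cyba promoter held 2 GC boxes (GGGCGG), from 24 to 19 and from 6 to 1 bases before the start, and the Ncf1 promoter held 1 on the opposite strand, from 42 to 37 bases before the start. A GC box was present in 32.7% of the promoters. The other motifs, a PU.1 core (GAGGAA, in 23.3% of the promoters), a TATA box (TATAAA, in 12.4%) and a C/EBP core (TTGCNNAA, in 9.56%), had no match in these 3 windows, which says only that these letters are not there. No 2 matches overlapped. The share of G and C was 34.0% for Cybb, 60% for Cyba and 54.4% for Ncf1, against a median of 52.4% over all promoters. The array does not measure binding at these sequences.

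Most oxidase transcripts gave signals near the top of the array. Of the 14 probe sets, 13 lay above the signal floor of 68.77, which is the array's 40th percentile and is passed by 60% of all probe sets by construction. At or above the 90th percentile there were 11 of the 14, where 10% of all probe sets lie, and the same 11 were at or above the 98th, where 2% lie. With each gene represented by its brightest probe set, 7 of 7 genes passed the floor, against 71.3% of 18193 genes, and 6 of 7 were at or above the 90th percentile, against 14.8%. The same 6 were at or above the 99th percentile, against 1.39% of genes. The exception was the proton channel gene Hvcn1. The median percentile of the 7 genes was 99.4, against 61.4 for all genes. The percentile of a reading says what share of the array's probe sets read lower. Since each probe set hybridises with its own efficiency, it places a signal on the array without ranking one transcript's abundance against another's. In RNA of a whole culture, the number of cells of a type and the RNA per cell cannot be told apart.

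**Figure D1:**
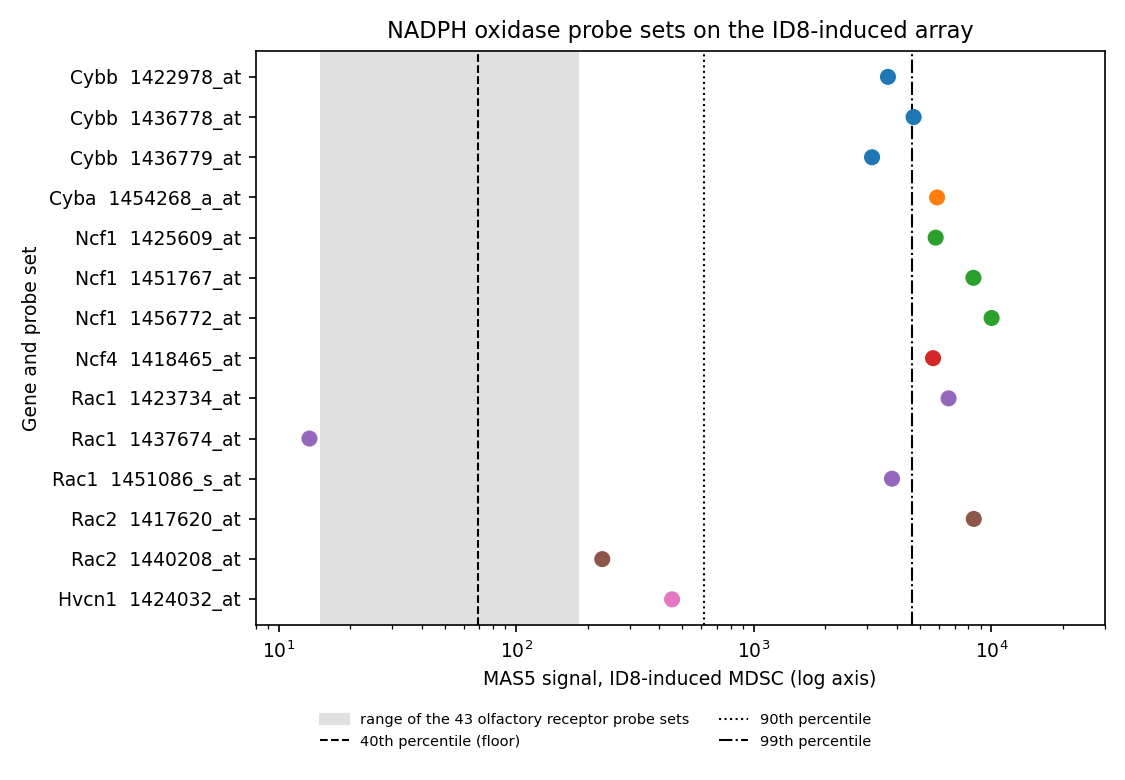
MAS5 signal on a log axis (horizontal) of each of the 14 NADPH oxidase probe sets (rows, coloured by gene) on the ID8-induced array. To the right of the 90th percentile line lie 11 points, while 1 Rac2 probe set, the Hvcn1 probe set and 1 Rac1 probe set lie to its left, the last of them below the floor at 13.48.

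Cybb, the catalytic subunit, read 3670 on probe set 1422978_at, 4706 on 1436778_at and 3146 on 1436779_at. These signals stood at percentiles 98.5, 99.01 and 98.2, so that 671, 444 and 816 probe sets of the array were brighter. Its 3 readings lay close together, the brightest being 1.5 times the dimmest. Among the 2366 genes with 3 probe sets the median of that ratio was 3.48, and 8.28% of them had a lower ratio than Cybb. Cyba, whose product stabilises the NOX2 chain and docks the organiser subunit, read 5908 on its single probe set, 1454268_a_at, at the 99.4th percentile with 290 probe sets brighter. With 1 probe set there is no second reading of Cyba on the array.

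Ncf1 encodes the organiser subunit, which carries the cytosolic complex to the membrane once it is phosphorylated. It read 5827 on 1425609_at, 8401 on 1451767_at and 10020 on 1456772_at, and 302, 135 and 86 probe sets were brighter. All 3 lay above the 99th percentile (99.3, 99.7 and 99.8), with a ratio of brightest to dimmest of 1.72, lower than in all but 13.3% of genes with 3 probe sets. Ncf4, whose product binds a phagosomal phosphoinositide, read 5683 on 1418465_at, at the 99.3rd percentile with 322 probe sets brighter.

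Signals this bright on all 3 probe sets of a gene were uncommon on the array. Of the 2366 genes with 3 probe sets, 17 (0.719%) had no reading under the 98th percentile, Cybb and Ncf1 among them. That share mostly reflects how few genes are so bright. Only 92 of the 2366 had their brightest reading at or above the 98th percentile, and the 17 are 18.5% of those 92. Others of the 17, picked out after their values were seen, were Pgk1 and Tpi1 (glycolytic enzymes), Il1rn (the interleukin 1 receptor antagonist) and Actr3 (a subunit of the actin-branching complex). The dimmest readings of these 4 were 10994, 5816, 4914 and 3667.

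The Rac genes, which encode the GTPases that switch the oxidase on, gave the widest spread between probe sets. Rac2, the Rac form of blood cells, read 8430 on 1417620_at (99.7th percentile, 133 probe sets brighter) and 230 on 1440208_at (76.6th percentile, 10553 brighter). The ratio of 36.6 exceeded that of 4648 of the 4695 genes with 2 probe sets, whose median was 2.12. Rac1, the form made by most cells, read 6604 on 1423734_at (99.5th percentile) and 3816 on 1451086_s_at (98.6th), but 13.48 on 1437674_at (3.17th). Its ratio of 490 exceeded that of 2364 of the 2366 genes with 3 probe sets, and it is the only member with a reading below the floor.

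A bright and a very dim probe set on 1 gene occurred elsewhere on the array too. Of the 92 genes with 3 probe sets and the brightest at or above the 98th percentile, 16 (17.4%) had their dimmest below the floor, as Rac1 did, and 17 (18.5%) had all 3 at or above the 98th. The mean log2 signal over probe sets, which lets the dim reading count, corresponded to 698 for Rac1 (91.0th percentile) and 1393 for Rac2 (95.5th), against 3787 for Cybb and 7887 for Ncf1. The platform annotation gives 1437674_at and 1440208_at each a sequence record of its own, different from that of the bright probe sets. Whether they read the same transcripts was not tested. Rac1, Rac2 and Rac3 encode closely related proteins, and cross-hybridisation between them was not tested either. Rac3, the third member, read 87.73 on its single probe set.

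**Figure D2:**
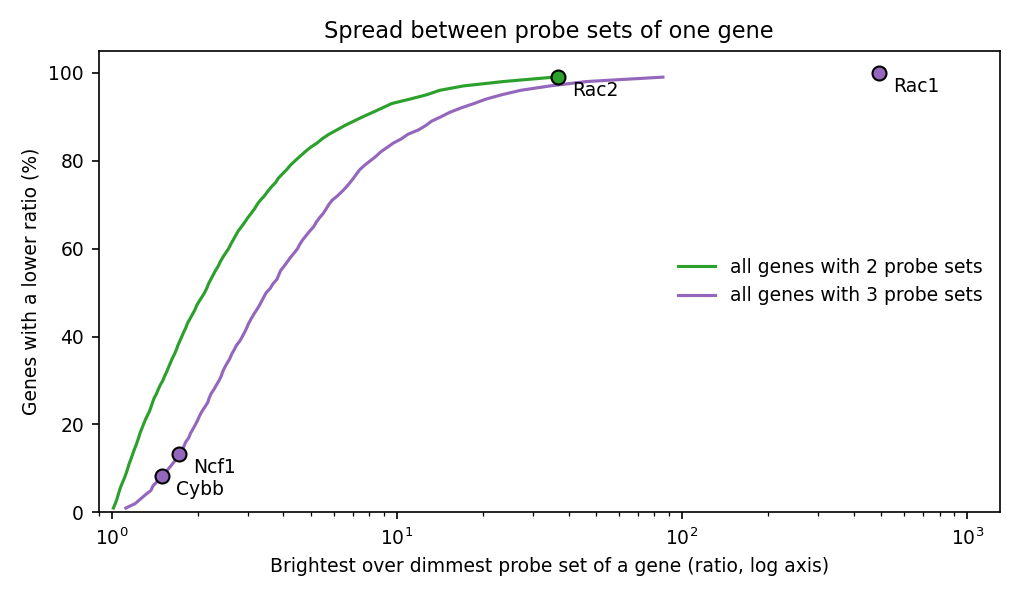
Ratio of the brightest to the dimmest probe set of a gene (horizontal, log axis) against the share of genes with a lower ratio (vertical, percent), for all genes with 2 probe sets (green line) and with 3 (purple line), each line leaving out the extreme ends; outlined points are oxidase genes. Cybb (1.5) and Ncf1 (1.72) lie at the low end of the purple line, Rac2 (36.6) at the high end of the green line, and Rac1 (490) to the right of where the purple line ends.

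Probe sets that the annotation ties to the same sequence record were compared as pairs. Whether the 2 probe sets of a pair read the same stretch of it, or that transcript alone, was not tested. There were 3 such pairs among the members. The Cybb pair read 4706 and 3146, the Ncf1 pair 8401 and 5827, and the Rac1 pair 6604 and 3816. The ratios were 1.5, 1.44 and 1.73, against a median of 1.60 (quartiles 1.22 and 2.42) over 1799 pairs with both signals above the floor. These differences between readings tied to 1 record are of the usual size for the array. They cover the hybridisation of different probes and not the spread between cultures.

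Hvcn1, the proton channel gene, read 453 on 1424032_at, at the 86.8th percentile with 5941 probe sets brighter. Among genes, 80.8% had a lower signal on their brightest probe set. It lay 6.58 times above the floor but below the 90th percentile of 619.81.

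A second reference level came from probe sets named for olfactory receptor genes (Olfr), odour receptors of sensory neurons that marrow cells are not known to need. The 43 such probe sets read from 15.09 to 181.68 with a median of 48.90, and 15 of them (34.9%) lay above the floor, so passing the floor alone is weak evidence of a transcript. Above the brightest of them there were 13 of 14 oxidase probe sets and 7 of 7 oxidase genes, against 38.6% of all genes. Hvcn1 was 2.49 times and the dimmer Rac2 reading 1.27 times that brightest olfactory signal, while the 11 strong oxidase probe sets were from 17.3 to 55.2 times above it.

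**Figure D3:**
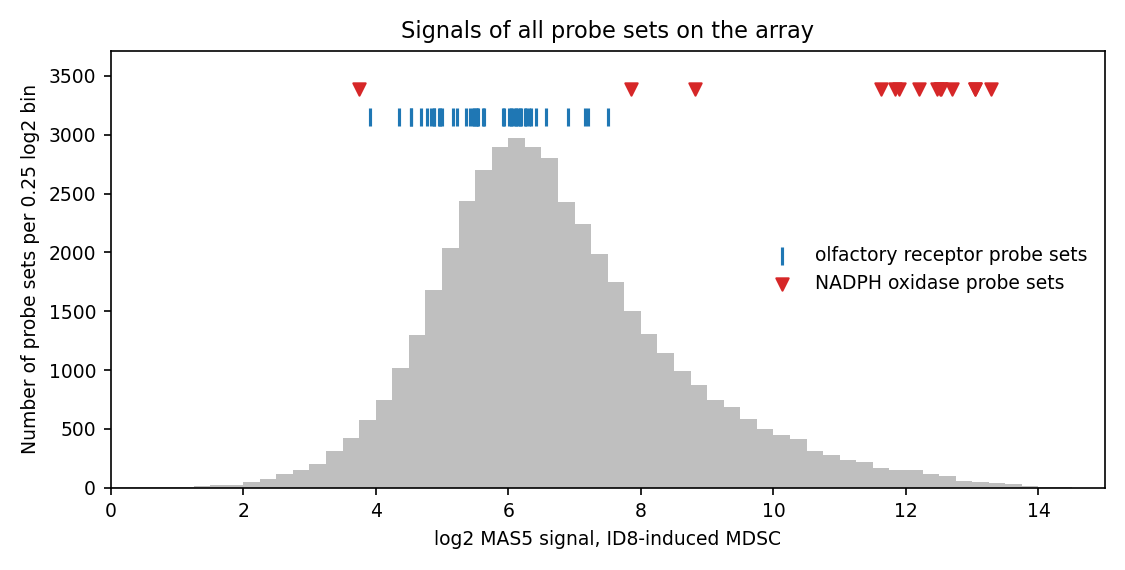
Number of probe sets (vertical) per bin of log2 MAS5 signal (horizontal) for all 45037 probe sets of the ID8-induced array, with the 43 olfactory receptor probe sets as blue ticks and the 14 oxidase probe sets as red triangles above. Of the triangles, 11 stand in the right-hand tail, at 3146 or more on the linear scale, and 1 lies at the far left at 13.48.

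Apart from Cybc1, the other measured genes of the NADPH oxidase family lay below the median percentile of all genes (61.4). Of 12 listed, 6 were measured by a probe set of their own. Of these 6, 3 passed the floor, against 71.3% of all genes. Cybc1, which encodes the chaperone needed for the flavocytochrome, read 1175 on its brighter probe set and 88.89 on the other. Nox4, the constitutively active oxidase of kidney and vessel wall, read 25.33 and 22.08. Duox1, a dual oxidase of epithelia, read 29.27, and the maturation factor genes Duoxa1 and Duoxa2 read 108.64 and 61.13. Noxo1, the organiser used by the colon oxidase, read 74.45. Only Cybc1 of these 6 exceeded the brightest olfactory probe set, as did 38.6% of all genes.

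Genes of the pathway around the oxidase were described from 7 further lists, and together with the family list 80 of 86 measured genes passed the floor, against 71.3% of all genes, and 45 reached the 90th percentile, against 14.8%. The GTPases related to Rac passed the floor in 10 of 10 cases, with a median percentile of 97.2. The brightest were Rhog at 6663, Rap1b at 6208 (1473 on its dimmest probe set) and Rhoa at 5871 (102.95 on its dimmest), and Rac3 was the lowest. Rap1 proteins copurify with the flavocytochrome. Regulators of Rac passed in 10 of 10 cases with a median percentile of 87.7, but only Arhgdib, whose product holds Rac in the cytosol of blood cells, was at or above the 90th percentile, at 7413. Arhgap25, a GTPase-activating protein of Rac, read 552, the exchange factor gene Prex1 read 545, and the exchange factor gene Tiam1 was the lowest at 214, with 61.33 on its dimmest probe set.

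Kinases and lipid enzymes that prime the cytosolic subunits passed the floor in 13 of 14 cases (71.3% of all genes did), with a median percentile of 89.4 beside 61.4 for all genes. Mapkapk2 (a kinase downstream of p38) read 5361, Prkcd (protein kinase C delta, which phosphorylates the organiser subunit) 2600 and Fgr (a Src-family kinase) 2188, while Prkcz was the lowest at 60.90, below the floor. Receptors that trigger the enzyme passed in 13 of 14 cases, and 11 of the 14 reached the 90th percentile, against 14.8% of all genes. Fpr2, a formyl peptide receptor, read 8970, Fcgr3 (an Fc gamma receptor) 8497 and Itgb2 (the beta chain of CD11b/CD18) 6880. Ptafr, the platelet-activating factor receptor, was below the floor at 61.83. The receptor list had a median percentile of 96.8.

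Enzymes that supply NADPH passed the floor in 9 of 9 cases, against 71.3% of all genes, with a median percentile of 91.0. Tkt (transketolase) read 4448 with 174 on its dimmest probe set, Pgd (6-phosphogluconate dehydrogenase, which makes NADPH) 4203 with 2942 on its dimmest, and Taldo1 (transaldolase) 3848. Me1 (malic enzyme) was the lowest at 122.79. Enzymes that use superoxide or hydrogen peroxide passed in 11 of 11 cases with a median percentile of 95.3. Sod2 (the mitochondrial superoxide dismutase) read 10671 with 293 on its dimmest, Txn1 (thioredoxin) 7873 with 63.26 on its dimmest, and Gpx4 (a glutathione peroxidase) 3479. Mpo (myeloperoxidase) read 278, and Epx (eosinophil peroxidase), the lowest, read 72.51.

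Of 12 measured transcription factors linked to oxidase genes, 11 passed the floor, against 71.3% of all genes, and their median percentile was 91.3. Cebpb read 10975, Rela 2625 and Irf1 2563, and Spi1, which encodes PU.1, read 1325. Hoxa10, a repressor of Cybb in immature myeloid cells, was the lowest at 51.05. These lists hold well-studied genes, each gene is represented by its brightest probe set, and no test against other genes was made.

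**Figure D4:**
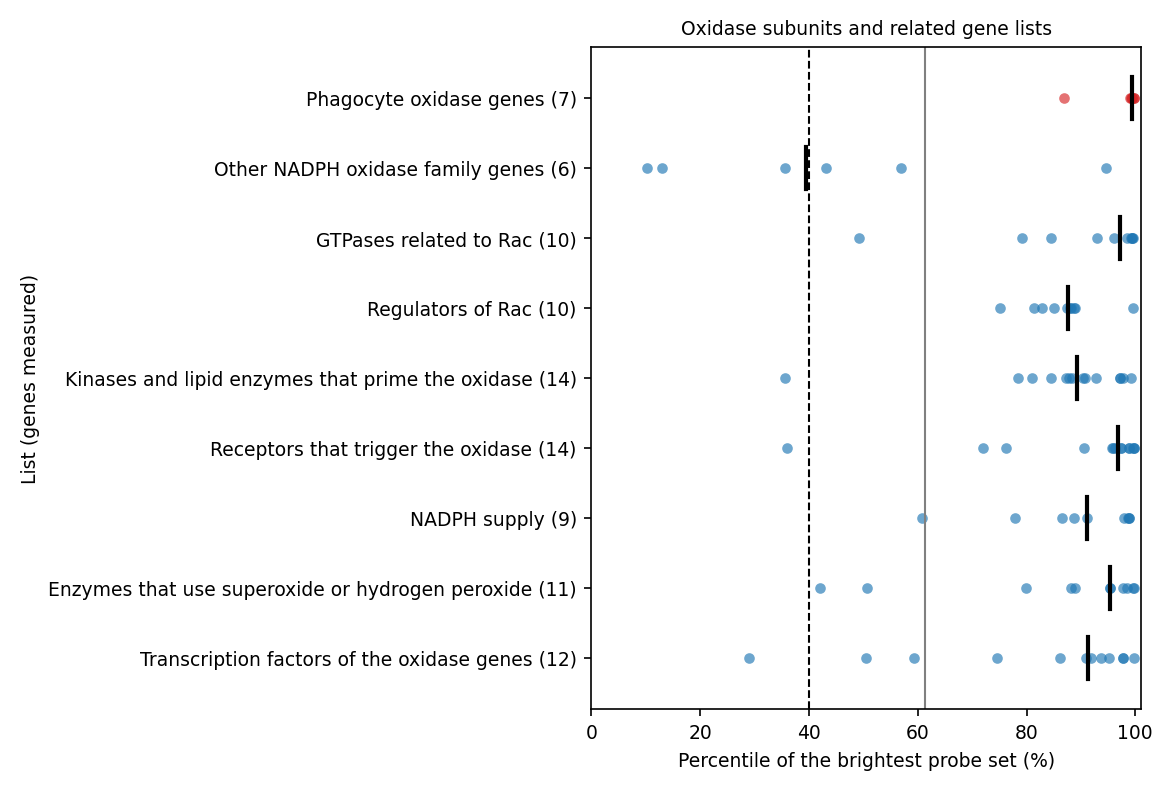
Percentile of each gene's brightest probe set among all probe sets of the ID8-induced array (horizontal) for the 7 oxidase genes (red) and 8 related lists (blue, genes measured in parentheses); black bars are list medians, the dashed line is the floor and the grey line the median of all genes (61.4). The oxidase row is packed at the right edge apart from Hvcn1, and the other NADPH oxidase genes spread over the left and middle apart from Cybc1 (list median 39.4).

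Several cell types of marrow use this oxidase, so markers of each were read on the same array, where 71.3% of all genes passed the floor and the median percentile of all genes was 61.4. Neutrophil markers passed the floor in 10 of 10 measured cases, each at or above the 90th percentile (median percentile 99.8, summed signal 120426). The strongest were S100a9 at 24857 and Lcn2 at 21448. Monocyte and macrophage markers passed in 7 of 8 cases (median 90.5, sum 12238), with Csf1r at 4403 and Cd68 at 3597, while C1qa lay below the floor at 35.04. Eosinophil markers passed in 2 of 5 cases (median 30.4, sum 607). Prg2 read 445 and Epx 72.51, and Siglecf and Ccr3 were low at 18.54 and 17.68. B cell markers, of interest because B cells also carry Hvcn1, passed in 6 of 6 cases (median 64.3, sum 1310), with Blnk at 571 and Cd79b at 261. Only these 2 exceeded the brightest olfactory probe set. Ms4a1, Ebf1 and Pax5 had a dimmest probe set below the floor (19.23, 66.58 and 40.23). No marker measured was at a signal of 0, but neither was any of the 18193 genes, whose lowest signal was 1.23.

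For the other marker lists the same share of 71.3% applies to genes at large, and counts near it say nothing about a cell type. T and NK cell markers passed the floor in 4 of 6 cases (sum 524, Cd3e highest at 135, then Nkg7 at 102), and dendritic cell markers in 5 of 6 (sum 695, Ccr9 at 199 and Flt3 at 165). Erythroid markers passed in 2 of 5 cases (sum 1992, mostly Alas2 at 1693, then Epor at 161). The other erythroid markers measured, Hba-a1, Klf1 and Car1, were below the floor at 51.32, 55.94 and 31.2. For epithelial and mesothelial markers, which tumour cells could bring, the count was 5 of 7 (sum 623, Epcam at 159 and Krt8 at 107), and for stromal and endothelial markers 4 of 8 (sum 840, Col1a1 at 270 and Pecam1 at 144). None of the T and NK cell or epithelial and mesothelial markers exceeded the brightest olfactory probe set. Itgam, which encodes CD11b, read 2375, at the 97.4th percentile. Ly6g and Ly6c2, whose products bind Gr1 antibody, are not analysed here. Among the genes just named that passed the floor, Ccr9, Epcam, Krt8 and Col1a1 had a dimmest probe set below it (27.99, 58.32, 46.62 and 34.71). Which cells carried the oxidase transcripts was not tested.

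**Figure D5:**
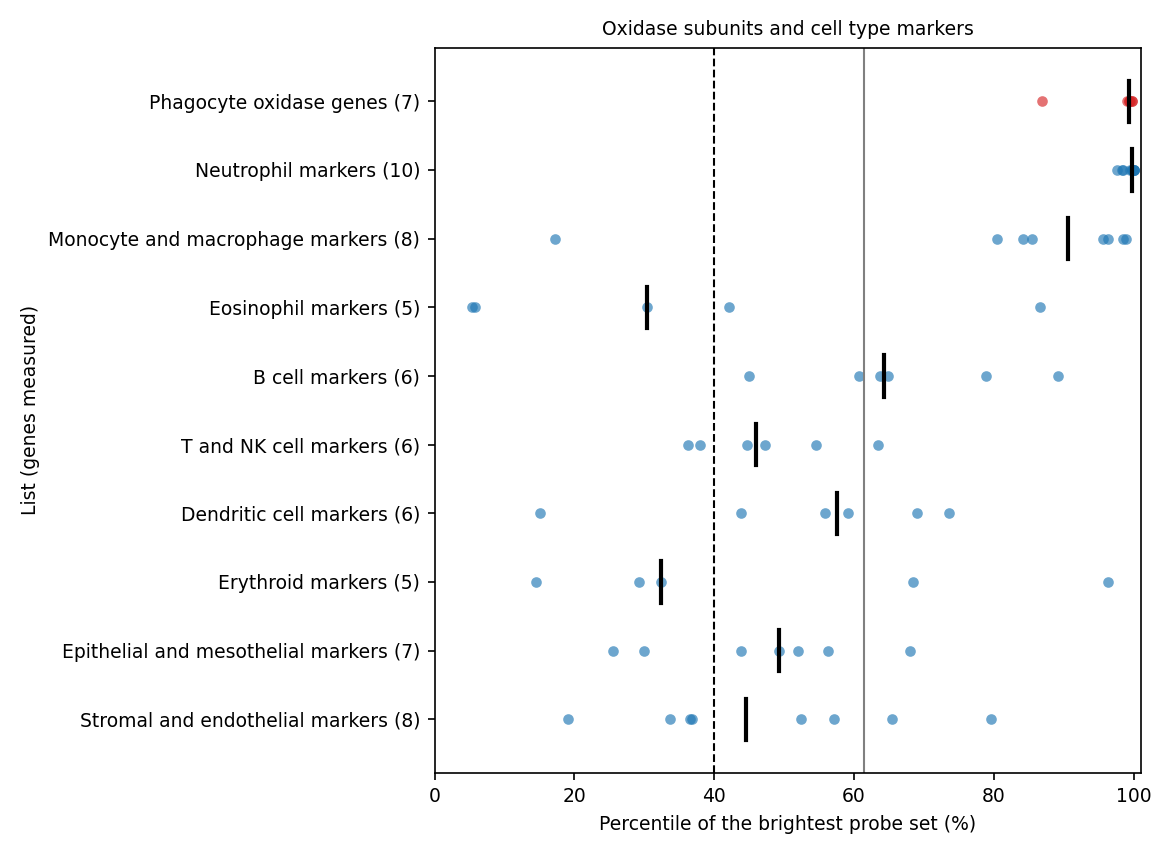
Percentile of each gene's brightest probe set (horizontal) for the 7 oxidase genes (red) and 9 marker lists (blue, genes measured in parentheses), with list medians as black bars, the floor dashed and the median of all genes in grey. Neutrophil markers share the right edge with the oxidase genes (medians 99.8 and 99.4), and eosinophil markers have a median of 30.4.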

How the data were processed

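RNA of 2 samples was measured on 1 Affymetrix array each. The table deposited by the authors holds a linear MAS5 intensity for each probe set (MAS5 per the submitters' processing notes). The sources used here give no version, scaling target or detection call. The number of arrays limits the precision. Signals were used as deposited.

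In GEO's platform annotation 34945 probe sets had a single gene symbol, 932 had several and 9160 had none. Those with a single symbol were used. The symbols of all 7 members matched the GRCm38.p6 gene table. Each column was first checked for row order. The floor was the 40th percentile of the ID8-induced array, and each gene took the value of its brightest probe set, which favours genes with several. No test was run with 1 usable array, and no pattern across samples could be compared. The percentile calculation was checked on values planted at known percentiles of the same array, which it had to return. The count of rises was checked on a noisy copy of the ID8-induced column, unsorted and sorted. Dividing a column at its last value was not tested in this way.

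The members and lists were chosen with earlier results of these data known. The text names every member probe set, the listed family genes, the 3 strongest genes and the lowest of each pathway list, and the 2 strongest markers of each type, plus a few singled out later (Mpo, Spi1, Itgam and low markers). Alternatives were other floors (20th and 60th percentile, 95th percentile of olfactory probe sets), other high thresholds (80th and 95th percentile), percentiles among named probe sets, the mean over probe sets and probe sets whose ID has no suffix letter. Promoters came from RefSeq. Python 3.11.15, numpy 2.4.6, pandas 2.3.3 and matplotlib 3.10.9 were used.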

Additional observations from a re-analysis of the deposited data

How the results depend on the processing

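Each count of members kept within 1.5 times its main value under every alternative run. Oxidase probe sets above the floor numbered 13 of 14 with the floor at the 20th percentile, at the 60th and at the 95th percentile of olfactory probe sets (139.76), and 11 of 12 without suffix letters. Probe sets at or above the 90th percentile were 11 of 14, 12 at the 80th percentile and 11 at the 95th. Oxidase genes above the floor were 7 of 7 with each floor and with the mean over probe sets, and 6 of 6 without suffix letters, where Cyba had no probe set left. Pathway genes above the floor were 84 of 86 at the 20th percentile, 73 of 86 at the 60th and 72 of 86 at the olfactory floor. They were 78 of 86 with the mean over probe sets and 66 of 72 without suffix letters. Averaging log2 signals over probe sets lowered Rac1 to 698 and Rac2 to 1393, by more than 1.5 times each; Ncf1 and Cybb moved by less. No paired analysis was possible because each group held 1 array and the control values could not be tied to probe sets. With the mean over probe sets, list medians fell most for dendritic cell markers (57.5 to 38.7 in percentile), regulators of Rac (87.7 to 75.4) and stromal and endothelial markers (44.6 to 32.3), beside 61.4 to 51.6 for all genes. The spread between cultures is unknown.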
